A study of Sus scrofa with 34 samples.

Results

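The liver response to oxidized oil was examined here as a main effect, that is, the mean of the diets with oxidized oil against the mean of the diets without it, with the phytogenic feed additive (PFA) kept as a term of the model. The samples were chosen by diet alone: 11 liver libraries from pigs fed oxidized oil (6 OO and 5 OO + PFA) and 12 from pigs without it (6 control, CTR, and 6 PFA), which makes 23 of the 34 libraries of the series and 23 of its 24 liver libraries. All genes of the table were eligible, and 13831 of 25880 had enough counts to be tested. The remaining liver library, pig 77 of OO + PFA, was set aside because the study had left it out for suspected RNA degradation.

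The animals were crossbred weaned piglets of both sexes, and sex was not a term of the main model. The labels give their age as 28 days. By the study's methods 28 is the number of days on the diets, which began after weaning and acclimatization. The pigs were therefore older than 28 days when sampled. CTR pigs received a basal diet and PFA pigs the same diet with a blend of essential oils and related aroma compounds. OO pigs received a diet with heated rapeseed oil, and OO + PFA pigs the same oil diet with the blend. The oxidized oil took the place of a share of the other ingredients, so the oil diets also held more fat and less of the starch and protein sources, and oil amount and oil oxidation cannot be told apart. The pigs of a diet shared 1 pen, and an effect of the pen cannot be told apart from that of its diet. Every library came from a pig of its own, and the spread below is that between pigs.

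Fatty acids enter hepatocytes through transport proteins, are activated to acyl-CoA, and pass into mitochondria through the carnitine shuttle, where beta-oxidation shortens them. Very long and branched chains are first shortened in peroxisomes. PPAR-alpha, a nuclear receptor that binds fatty acids, switches on many of these genes during fasting and fat feeding by pairing with RXR on direct repeats of the letters AGGTCA. In the same cells acetyl-CoA carboxylase and fatty acid synthase build new fat from carbohydrate, and excess fat is stored as droplets coated with perilipins. Fat oxidation products such as hydroperoxides and aldehydes are handled by glutathione, peroxiredoxin and aldehyde-oxidizing enzymes, many of them under the control of the transcription factor Nrf2.

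In the pigs fed oxidized oil, 6 of 8 tested genes of the carnitine shuttle were higher and 1 was lower. Of the tested genes of mitochondrial beta-oxidation 10 of 16 were higher, and of those of lipid droplets 10 of 19. Of 12 tested genes of fat synthesis 3 were lower. With edgeR's quasi-likelihood test and Benjamini-Hochberg adjustment over all genes tested, 1238 genes rose (8.95% of genes tested) and 392 fell (2.83%) at an adjusted p of at most 0.05. With a fold change of at least 2 as well, 441 rose (3.19%) and 28 fell (0.202%). The median log2 fold change was 0.01 over all genes tested, 0.82 over those that rose and -0.45 over those that fell. In 27 genes every oil pig lay above every pig without oil (0.195% of genes tested), and in 2 genes every oil pig lay below (0.0145%).

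The libraries held between 19839171 and 42446834 read pairs on genes. Mean depth differed by -3.89e+06 read pairs (oil minus no oil), beside an SD between pigs of 6.87e+06 without oil and 5.83e+06 with oil. A permutation test of the difference in means (two-sided) gave p = 0.158. The libraries differed in how steeply counts climbed with the GC content of a gene. This GC slope, in log2 CPM (the read pairs of a gene scaled to the total of its library) per 10 points of GC content, ran from -0.50 to 0.05 with a median of -0.15 in the pigs without oil, and from -0.41 to 0.46 with a median of 0.14 in the oil pigs. The ranges overlapped, and the difference of 0.23 had a permutation p of 0.0324 (two-sided) and an adjusted p of 0.259 over the 8 library measures compared. Genes called higher had a median GC content of 62.8%, against 51.2% over all genes tested with a known GC content and 48.4% over genes called lower. Of 612 genes with 65 to 70% GC, 47.5% were called higher and none lower, whereas of 1051 genes with 35 to 40% GC, 0.761% were called higher and 2.28% lower. When the GC slope was added to the model, 300 genes rose (2.17%) and 127 fell (0.918%), and 230 of the 1238 and 85 of the 392 kept their call, although 1237 and 392 kept their sign. The slope was computed from the same counts, and its part in the result was not tested. Library titles came in 2 forms whose meaning is not given. In the libraries titled PigLiv 1144 genes rose and the log2 fold changes of NNAT and DHRS4 were 5.08 and 2.98, and in those titled PL, with 1 OO + PFA pig, 28 rose and the values were 4.29 and 2.85. With Y-linked counts, which differ by sex, as a term 987 genes rose and 300 fell. Leaving out 1 pig moved the number of genes that rose to between 623 (without OO-102) and 1868 (without OO pig 97). For the lists of genes below that had calls, the count called with the GC slope as a term is given too. Counts in every list stand beside 8.95% of all genes called higher and 2.83% called lower (2.17% and 0.918% with that term).

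**Figure D1:**
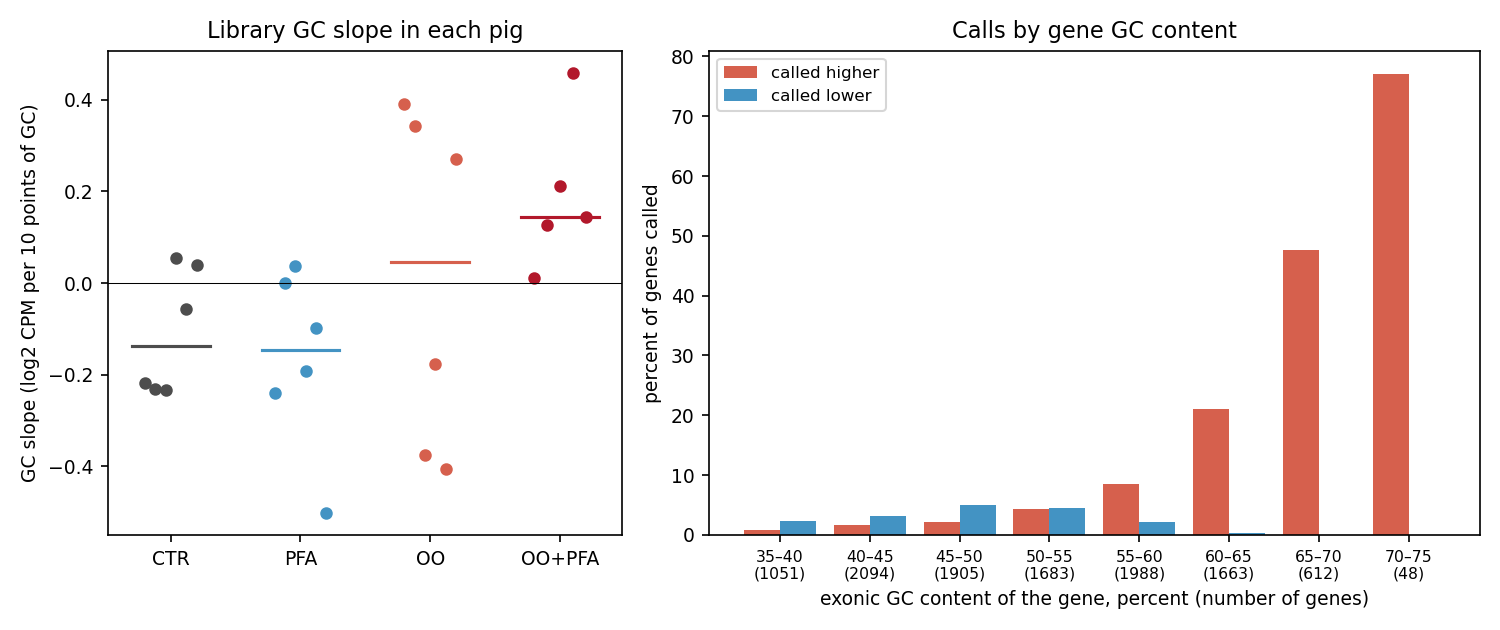
The left panel plots the GC slope of each library (log2 CPM per 10 points of GC content) by diet with the median as a bar, and the right panel plots the percent of genes called higher or lower in bins of exonic GC content with the number of genes under each bin. The percent called higher climbs from 0.761% at 35 to 40% GC to 47.5% at 65 to 70% GC.

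The 27 genes without overlap were, in all, also called higher with the GC slope as a term, and the 2 in the other direction were also called lower. Their largest fold belonged to NNAT (neuronatin, a small membrane protein of the endoplasmic reticulum best known from neurons and endocrine cells, at chr17:40625990-40629523). NNAT stood at 0 to 0.317 CPM with a median of 0.108 CPM in pigs without oil and at 1.17 to 11.7 CPM with a median of 3.57 CPM in oil pigs. It was barely detected without oil and present in every oil pig, with a log2 fold change of 4.82 (SE 0.34, adjusted p = 2.21e-09). DHRS4 (a peroxisomal dehydrogenase/reductase that acts on retinal and other carbonyls) had the smallest p of all genes tested. It ran from 44.0 to 67.8 CPM (median 51.5) without oil and from 234 to 1088 CPM (median 332) with oil, a gap wider than the whole range of the pigs without oil, and its log2 fold change was 2.93 (SE 0.15, adjusted p = 4.3e-12). RETSAT (retinol saturase) rose from 101.8 to 196 CPM (median 160) to 332 to 649 CPM (median 453), a log2 fold change of 1.54 (SE 0.11, adjusted p = 2.29e-09). The oil pigs thus began well above the highest pig without oil for both enzymes of retinoid metabolism.

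A further set of these genes belongs to other processes. PMM1 (phosphomannomutase, for the mannose units of glycoproteins) lay at 5.51 to 12.5 CPM without oil and 27.5 to 71.4 CPM with oil, a log2 fold change of 2.32 (SE 0.17, adjusted p = 2.29e-09). SLC25A45 (a mitochondrial carrier) lay at 1.38 to 7.65 CPM without oil and 8.53 to 42.8 CPM with oil, with a log2 fold change of 2.64 (SE 0.28, adjusted p = 1.38e-06). RAB30, a small GTPase of the Golgi, lay at 2.001 to 3.62 CPM and 4.89 to 20.4 CPM, with a log2 fold change of 2.03 (SE 0.18). Each of the 3 genes was thus clearly expressed in both groups, unlike NNAT. ARG2 (mitochondrial arginase) rose by 1.68, PLEKHG6 by 2.28 and STARD6 by 2.17 on the log2 scale, the last from a level of at most 0.26 CPM without oil. The least of the 27 was ENSSSCG00000006928, which had no symbol in the names used here, with a log2 fold change of 0.44 and oil pigs at 17.5 to 23.2 CPM against at most 16.7 CPM. The 2 genes below every pig without oil were SULT1C2 (a sulfotransferase) and ENSSSCG00000032490. SULT1C2 lay at 9.65 to 24.96 CPM without oil and 4.10 to 7.18 CPM with oil, and fell by 1.46 on the log2 scale (SE 0.15, adjusted p = 6.83e-07).

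**Figure D2:**
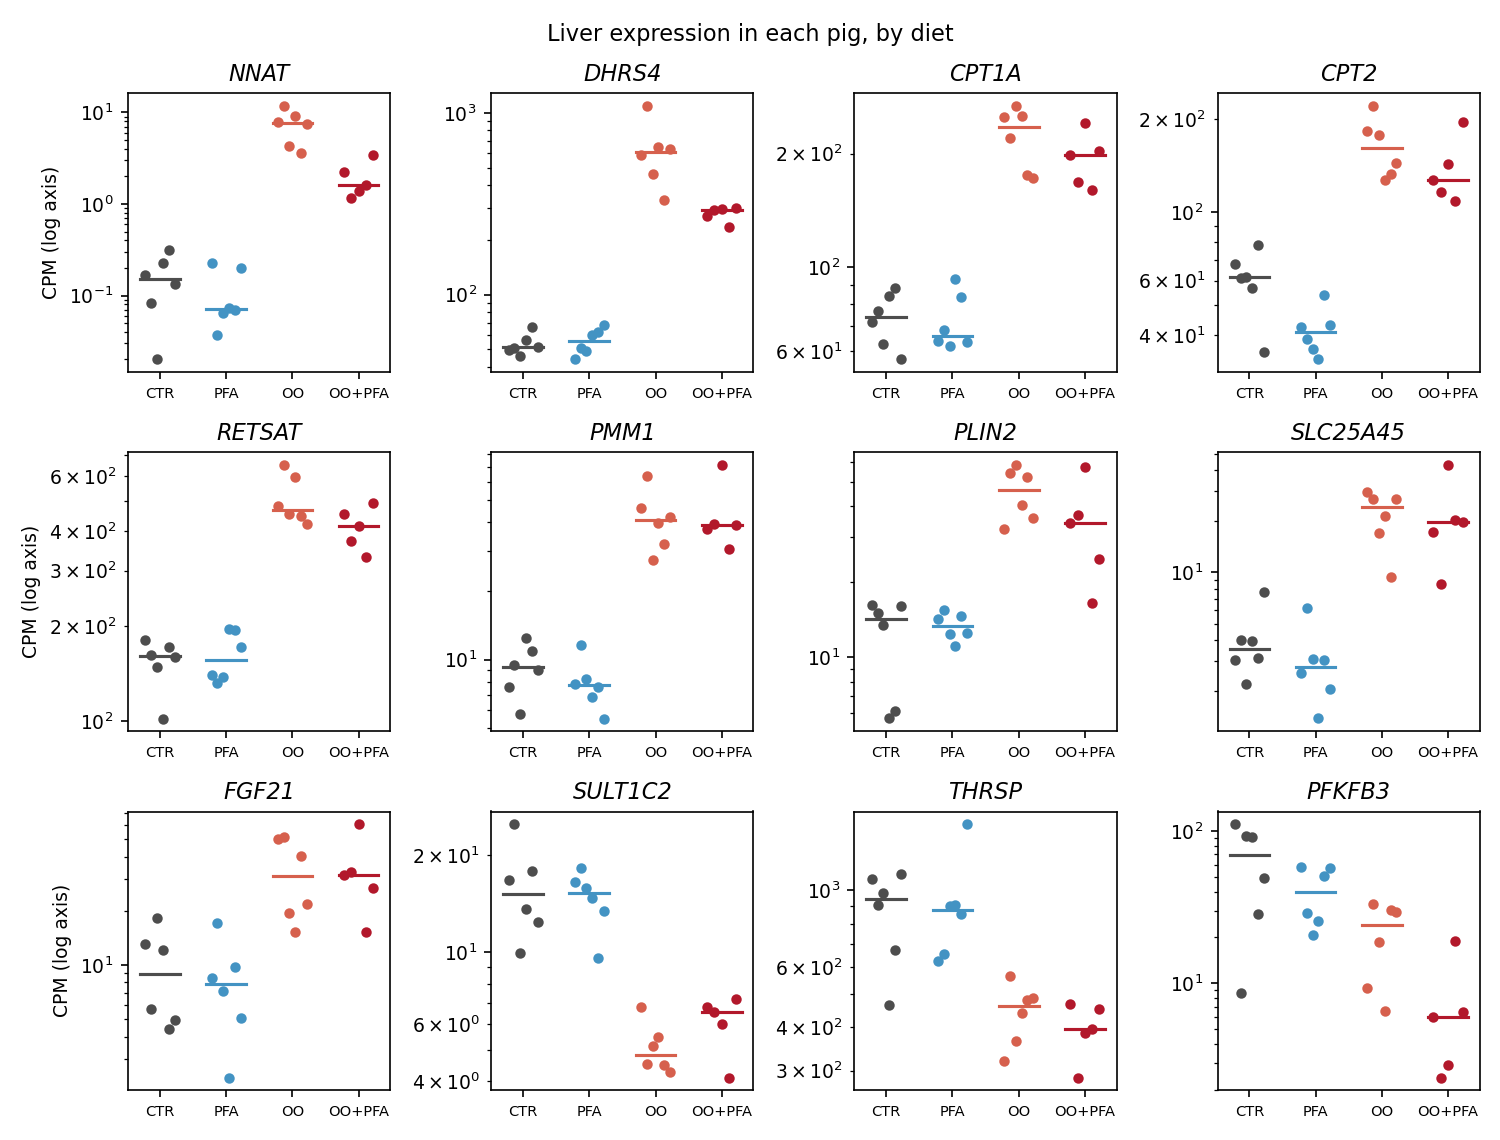
Expression of 12 genes in each pig, in CPM on a log axis, by diet (CTR, PFA, OO and OO + PFA), with the median of each diet as a bar. For NNAT, DHRS4, CPT1A, CPT2, RETSAT, PMM1, PLIN2 and SLC25A45 the oil pigs lie above every pig without oil, for SULT1C2 below, and the 0 of 1 CTR pig for NNAT is drawn at 0.02 CPM.

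The stretches before the starts of these genes were read from Sscrofa11.1 (RefSeq gene starts, 250 bases, gene strand) and searched on both strands for AGGTCA, the core hexamer bound by PPAR-alpha with RXR, and for AGGNCANAGGNCA, a direct repeat of it with the fourth base of each hexamer free. Capitals mark the matches. They are shown for the gene with the largest fold, for enzymes of the carnitine shuttle, retinol and droplet breakdown that hold a match, and for HADHA, which holds none. NNAT lies at chr17:40625740-40625989 (plus strand), CPT2 at chr6:159061328-159061577 (minus strand), RETSAT at chr3:59400911-59401160 (plus strand), ABHD5 at chr13:27006081-27006330 (plus strand) and HADHA at chr3:112753093-112753342 (plus strand).
NNAT: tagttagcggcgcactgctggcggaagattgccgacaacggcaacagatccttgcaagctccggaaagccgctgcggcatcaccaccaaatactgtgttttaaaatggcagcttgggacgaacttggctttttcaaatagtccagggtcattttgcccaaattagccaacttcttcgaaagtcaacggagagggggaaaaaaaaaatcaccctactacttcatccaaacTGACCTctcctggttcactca
CPT2: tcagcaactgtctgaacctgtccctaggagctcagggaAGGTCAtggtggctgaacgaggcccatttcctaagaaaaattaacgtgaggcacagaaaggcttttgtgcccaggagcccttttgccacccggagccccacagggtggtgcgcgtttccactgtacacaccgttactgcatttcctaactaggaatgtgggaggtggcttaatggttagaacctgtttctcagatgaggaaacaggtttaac
RETSAT: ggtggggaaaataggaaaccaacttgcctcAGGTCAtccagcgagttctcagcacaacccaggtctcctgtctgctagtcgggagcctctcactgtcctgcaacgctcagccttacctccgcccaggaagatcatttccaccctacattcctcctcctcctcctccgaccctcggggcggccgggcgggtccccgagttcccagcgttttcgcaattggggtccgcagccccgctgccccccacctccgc
ABHD5: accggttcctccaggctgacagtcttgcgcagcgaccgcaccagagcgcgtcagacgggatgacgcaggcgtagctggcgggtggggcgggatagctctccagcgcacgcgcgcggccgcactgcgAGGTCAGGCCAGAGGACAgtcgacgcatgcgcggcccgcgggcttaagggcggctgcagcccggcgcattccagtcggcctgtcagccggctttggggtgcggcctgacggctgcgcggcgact
HADHA: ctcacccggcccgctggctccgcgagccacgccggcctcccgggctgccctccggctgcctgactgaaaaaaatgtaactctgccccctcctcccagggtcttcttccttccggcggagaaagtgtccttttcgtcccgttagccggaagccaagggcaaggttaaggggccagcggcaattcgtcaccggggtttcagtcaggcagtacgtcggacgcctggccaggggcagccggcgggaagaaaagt
The NNAT match is on the reverse strand and ends 16 bases before the start, whereas those of CPT2 and RETSAT begin 212 and 220 bases before it. In ABHD5 the hexamer and the direct repeat share 1 base. Over all 11113 such stretches, 10.9% held the hexamer and 0.252% the direct repeat. Among 1006 genes called higher 112 held the hexamer and 0.298% the direct repeat, and among 315 called lower 42 (13.3%) and none. Of the 24 genes without overlap that had such a stretch, 7 held the hexamer and 1, ABHD5, the direct repeat. A match is a run of letters in a short window and not a measured binding site.

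Among the lists by function, apart from the genes the study measured by qPCR, the carnitine shuttle had the highest share called higher. Of its 8 tested members 6 rose and 1 fell, with a median log2 fold change of 1.05, beside 8.95% of all genes called higher and a median of 0.01, and 6 rose and none fell with the GC slope as a term. CPT1A (carnitine palmitoyltransferase 1A, the entry step on the outer mitochondrial membrane) lay at 57.1 to 93.3 CPM with a median of 69.9 CPM without oil, and at 160 to 267 CPM with a median of 203 CPM with oil. CPT2, which returns the chain to CoA on the inner side, lay at 33.4 to 78.1 CPM (median 48.6) and 108 to 220 CPM (median 143). Neither gene had an oil pig within the range of the pigs without oil. The log2 fold changes were 1.51 (SE 0.11, adjusted p = 2.29e-09) for CPT1A and 1.59 (SE 0.13, adjusted p = 3.21e-08) for CPT2. SLC25A20, the carnitine-acylcarnitine carrier between them, rose by 0.74, with 9 of 11 oil pigs above every pig without oil. CRAT (carnitine acetyltransferase) rose by 1.16, CPT1B by 0.94 and MLYCD, which removes the malonyl-CoA that blocks CPT1, by 1.51 on the log2 scale. BBOX1, the last step of carnitine synthesis, fell by 0.39 (adjusted p = 0.0396) but was not called with the GC slope as a term.

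Uptake and activation moved unequally. Of 14 tested members 4 rose and 1 fell, with a median log2 fold change of 0.22, and 4 rose and none fell with the GC slope as a term. SLC27A2, which imports and activates very long fatty acids, lay at 53.9 to 118 CPM (median 90.3) without oil and at 162 to 382 CPM (median 259) with oil, without overlap, and rose by 1.49 on the log2 scale (SE 0.13, adjusted p = 9.56e-08). ACSL1, the main acyl-CoA synthetase of the liver, rose by 0.99, FABP3 by 1.03 and FABP4 by 1.27, and both of these binding proteins are better known from muscle and fat tissue. ACSL4, which prefers arachidonic acid, went the other way: it fell by 1.28 on the log2 scale (SE 0.27, adjusted p = 0.00491), with 9 of 11 oil pigs below every pig without oil, and its adjusted p was 0.0538 with the GC slope as a term. ACSL3, ACSL5 and SLC27A4 had log2 fold changes of -0.11, 0.06 and 0.31 and were not called. CD36 and FABP1, which belong to this list, were not analysed here.

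In mitochondrial beta-oxidation 10 of 16 tested members rose and none fell, with a median log2 fold change of 0.52, and 8 rose with the GC slope as a term. ACADVL (very long-chain acyl-CoA dehydrogenase) ran from 66.5 to 109 CPM (median 85.8) without oil and from 176 to 371 CPM (median 208) with oil, a log2 fold change of 1.34 (SE 0.11, adjusted p = 4.78e-08). HADHA and HADHB, the alpha and beta chains of the trifunctional protein that carries out the next steps on long chains, lay at 134 to 228 and 86.1 to 186 CPM without oil and at 267 to 547 and 191 to 297 CPM with oil. The 3 genes did not overlap between the groups. ACADL rose by 1.03, ACAA2 (the thiolase) by 1.37, ACADS by 0.56 and ACADM by 0.43 on the log2 scale, of which ACADS was not called with the GC slope as a term. ETFDH and ETFB, which pass electrons on to the respiratory chain, rose by 0.56 and 0.81, ETFB without a call with the term. HADH, ECHS1 and DECR1, for shorter or unsaturated chains, had log2 fold changes of -0.19, 0.17 and -0.25 and were not called.

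HADHB, HADHA and GAREM2 are neighbours on chromosome 3 of Sscrofa11.1. HADHB (112712894 to 112753121, minus strand) and HADHA (112753343 to 112797627, plus strand) start 221 bases apart, head to head, and GAREM2 (112799350 to 112817583, minus strand), an adaptor of growth factor signalling, ends 1722 bases from the end of HADHA. None of the 3 overlapped between oil and no oil. GAREM2 lay at 0.100 to 1.24 CPM (median 0.414) without oil and at 2.23 to 29.8 CPM (median 5.63) with oil, a log2 fold change of 3.89 (SE 0.41, adjusted p = 1.46e-06) against 0.97 (SE 0.11) for HADHA and 0.77 (SE 0.11) for HADHB. The strand option of the counting is not given in the sources used here, so reads that ran past the end of HADHA could not be told from reads of GAREM2.

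Peroxisomal beta-oxidation held a smaller share of calls than the mitochondrial list. Of 13 tested members 3 rose (23.1%) and none fell, beside 8.95% of all genes called higher and 2.83% called lower. The median log2 fold change was 0.08, and 1 member rose with the GC slope as a term. EHHADH, a bifunctional enzyme of the pathway, lay at 328 to 923 CPM (median 567) without oil and 492 to 762 CPM (median 630) with oil, with every oil pig inside the range without oil, and had a log2 fold change of 0.17 (SE 0.15, adjusted p = 0.502). ACAA1, the peroxisomal thiolase, rose by 0.78 (SE 0.10, adjusted p = 3.77e-05), with 10 of 11 oil pigs above every pig without oil. In the list of peroxisome assembly and membrane genes 2 of 17 tested members rose (11.8%, near the share of all genes) and 1 fell (5.88%). With the term 3 rose and none fell. ABCD3, which imports fatty acids into peroxisomes, rose by 1.34 (SE 0.15, adjusted p = 2.48e-06) and PEX11A, which acts in peroxisome division, by 0.87 (SE 0.12, adjusted p = 3.68e-05).

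The list of ketone body genes was short. Of 7 tested members 2 rose (28.6%) and none fell, beside 8.95% of all genes called higher and 2.83% called lower, and 1 rose with the term. BDH1, which makes beta-hydroxybutyrate, rose by 0.47 without a call with the term, and ACAT1 and OXCT1 had log2 fold changes of 0.11 and 0.01 and were not called.

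**Figure D3:**
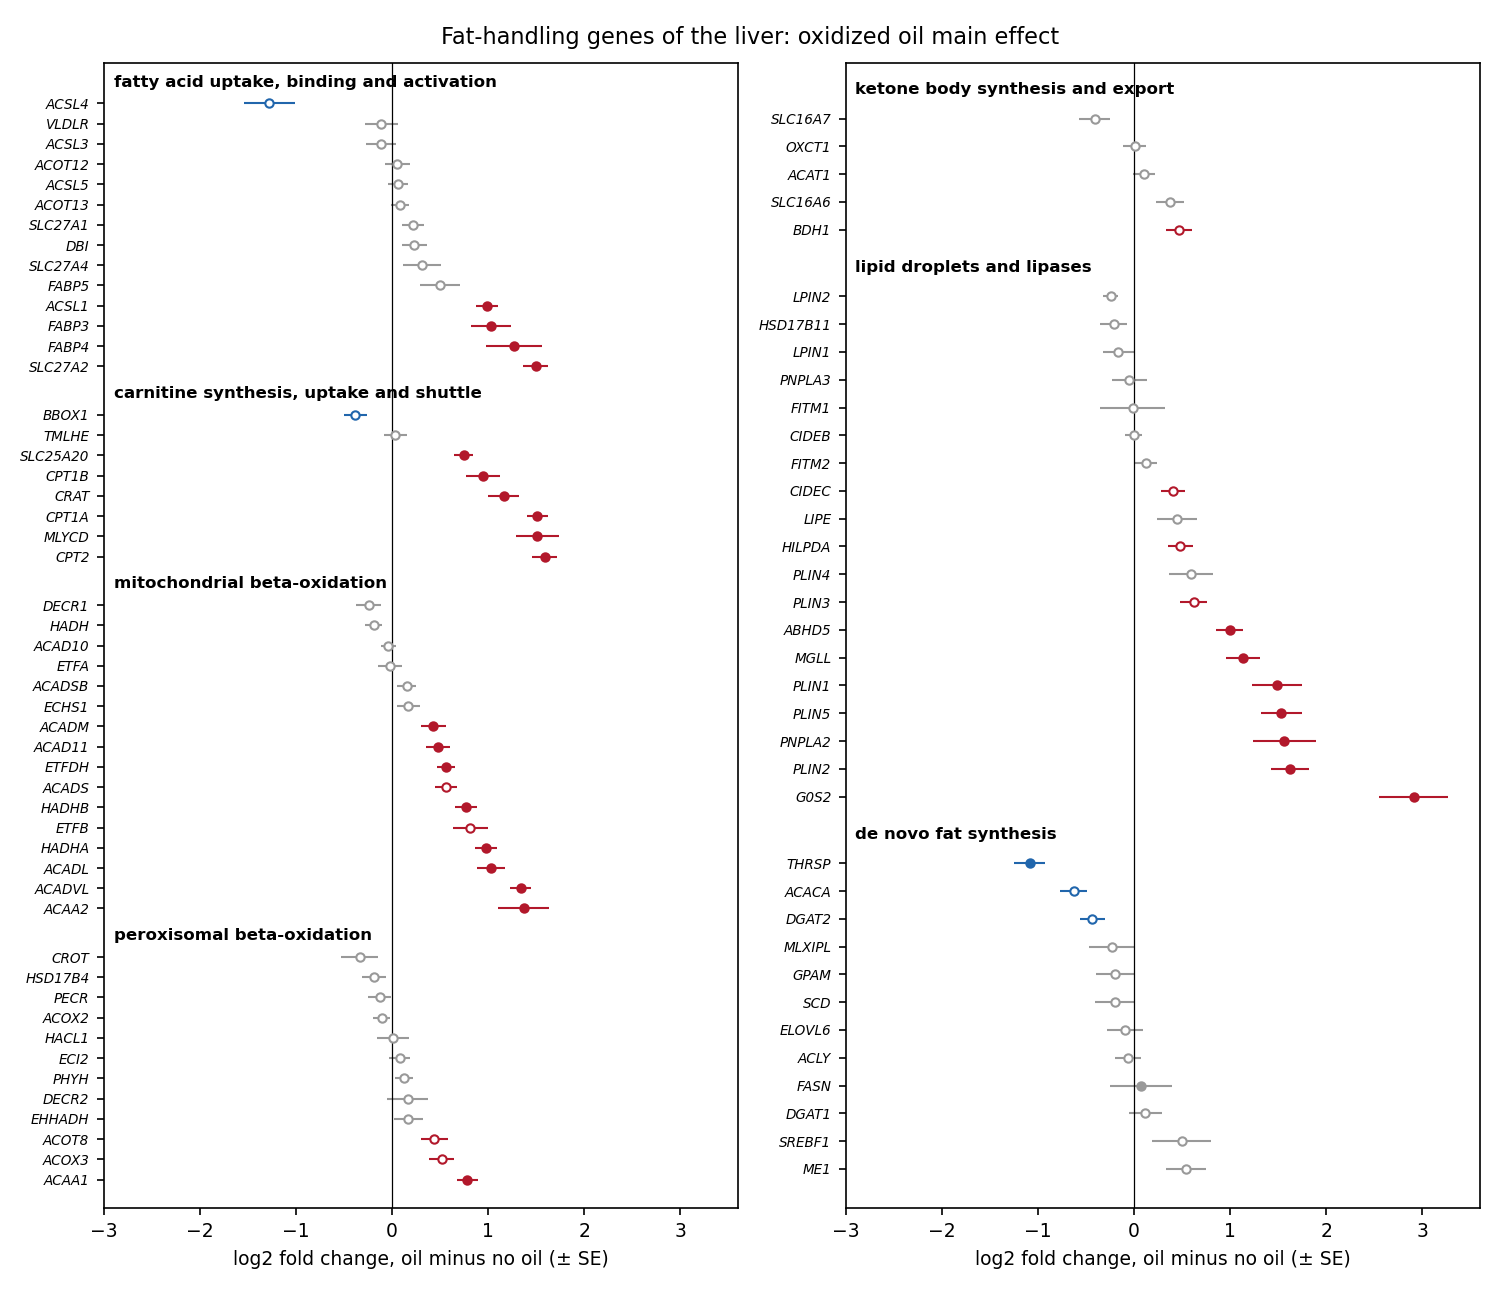
Log2 fold change of oil minus no oil with its SE for tested members of 7 lists of fat-handling genes, in red where called higher, blue where called lower and grey where not called, with filled symbols for genes called with the GC slope as a term. CPT1A, CPT2, ACADVL, SLC27A2 and PLIN2 lie above 1 with filled red symbols, while EHHADH (0.17) lies near 0 in grey.

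The receptors of this programme and its signals were measured as well. Of 17 tested members 5 rose and none fell, with a median log2 fold change of 0.27, and 2 rose with the GC slope as a term. PPARA, which encodes PPAR-alpha, lay at 11.3 to 35.4 CPM without oil and 8.34 to 51.5 CPM with oil and had a log2 fold change of -0.18 (SE 0.21, adjusted p = 0.614). PDK4, which blocks pyruvate entry into mitochondria and is a common mark of fat use, had a log2 fold change of 0.10 (SE 0.21, adjusted p = 0.814). FGF21, a hormone the liver secretes in fasting, rose from 2.37 to 18.2 CPM (median 7.82) to 15.2 to 60.5 CPM (median 31.5), with 9 of 11 oil pigs above every pig without oil and a log2 fold change of 1.89 (SE 0.32, adjusted p = 0.000615). CREB3L3, a liver transcription factor that acts on FGF21 and lipid genes, lay at 159 to 265 CPM without oil and 284 to 563 CPM with oil, without overlap, and rose by 0.95 (SE 0.10, adjusted p = 1.55e-06). ANGPTL4, an inhibitor of lipoprotein lipase, rose by 0.81 and PPARGC1B by 0.96, both without a call with the term.

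Droplet coat proteins and lipases rose together in number: 10 of 19 tested members rose and none fell, with a median log2 fold change of 0.48, and 7 rose with the GC slope as a term. PLIN2, the common droplet coat of hepatocytes, lay at 5.70 to 16.2 CPM (median 13.8) without oil and at 16.4 to 58.1 CPM (median 36.8) with oil, just short of overlap, and rose by 1.63 on the log2 scale (SE 0.20, adjusted p = 1.1e-05). PLIN5, which ties droplets to mitochondria, rose by 1.54. G0S2, an inhibitor of the lipase PNPLA2, had the largest log2 fold change of the list, 2.91 (SE 0.36, adjusted p = 1.54e-05), from 2.07 to 8.96 CPM to 7.18 to 91.5 CPM. PNPLA2 itself rose by 1.57 (SE 0.33) and its activator ABHD5 by 1.00 (SE 0.14, adjusted p = 6.06e-05), the latter from 29.6 to 73.5 CPM to 73.8 to 142 CPM. MGLL, which takes the last fatty acid off glycerol, rose by 1.13. The lipase, its activator and its inhibitor were thus all higher in the oil pigs. LIPE and PNPLA3 had log2 fold changes of 0.44 and -0.05 and were not called.

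In the synthesis of new fat none of 12 tested members rose and 3 fell, with a median log2 fold change of -0.15, beside 2.83% of all genes called lower, and 2 fell with the GC slope as a term. THRSP, a protein that promotes fat synthesis, lay at 465 to 1556 CPM (median 903) without oil and at 286 to 563 CPM (median 441) with oil, with 7 of 11 oil pigs below every pig without oil, and fell by 1.09 on the log2 scale (SE 0.16, adjusted p = 0.000159). ACACA (acetyl-CoA carboxylase) fell by 0.63 (SE 0.14, adjusted p = 0.00883) and DGAT2 by 0.43, both without a call with the term. FASN (fatty acid synthase) ran from 185 to 1230 CPM without oil and from 96.3 to 1050 CPM with oil, with a log2 fold change of 0.08 (SE 0.32, adjusted p = 0.913). With the GC slope as a term its log2 fold change was -0.78 and its adjusted p 0.0069, so its value depended on that term. In glycolysis PKLR, the liver pyruvate kinase, fell by 0.81 (SE 0.13, adjusted p = 0.000373) and PFKFB3, which makes the main activator of phosphofructokinase, was 4.01-fold lower (SE of the log2 fold change 0.40, adjusted p = 0.00349), both also with the term. Of the 26 tested genes of glucose handling 5 rose and 2 fell (4 and 2 with the term). PC (pyruvate carboxylase), which feeds glucose synthesis and the citrate cycle, lay at 108 to 198 CPM without oil and 215 to 674 CPM with oil, without overlap, and rose by 1.39 (SE 0.18, adjusted p = 3.31e-05). PCK2 rose by 0.83 and PFKL by 1.66.

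Other branches of lipid metabolism held single genes with large changes. Their lists stand beside 8.95% of all genes called higher and 2.83% called lower. Among 6 tested genes of polyunsaturated fatty acid synthesis 3 rose and none fell (1 with the term). ELOVL2, which lengthens long polyunsaturated chains, lay at 10.9 to 55.8 CPM (median 35.3) without oil and at 27.4 to 222 CPM (median 127) with oil, 10 of 11 oil pigs above every pig without oil, and rose by 1.80 on the log2 scale (SE 0.25, adjusted p = 6.3e-05). Of 24 tested genes of cholesterol synthesis and uptake 5 rose and none fell (2 with the term), MVD by 1.59 and EBP by 0.63 among them. Of 16 tested genes of bile acid synthesis and transport 1 rose and 1 fell, 6.25% each (1 and 1 with the term). NR0B2, a repressor of bile acid synthesis, rose by 2.20 (SE 0.34, adjusted p = 0.000261), with 9 of 11 oil pigs above every pig without oil, and CYP7A1, the rate-limiting enzyme, had a log2 fold change of -0.44 (adjusted p = 0.246). Of 15 tested apolipoproteins and lipoprotein genes 3 rose and 1 fell (1 and none with the term), led by LIPG, endothelial lipase, which rose by 1.44. APOA4 rose by 2.47 (SE 0.58, adjusted p = 0.0108), but 1 OO + PFA pig held 675 CPM and the other oil pigs of that diet 16.8 to 47.7 CPM, and without that pig its log2 fold change was 1.18 (adjusted p = 0.0525), and it was not called with the GC slope as a term.

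Retinoid genes split by enzyme. Besides DHRS4 and RETSAT, DHRS3 rose by 0.39 without a call with the term, and CYP26A1, which breaks down retinoic acid, fell by 1.06 on the log2 scale (SE 0.23, adjusted p = 0.00654), with 9 of 11 oil pigs below every pig without oil. BCO2, which cleaves carotenoids, fell by 0.43, also without one. Of the 16 tested members 3 rose and 2 fell, and 2 rose and 1 fell with the GC slope as a term. RBP4 and TTR, which carry retinol in plasma, had log2 fold changes of -0.22 and -0.01 and were not called.

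The antioxidant lists showed few calls. Of 20 tested genes of Nrf2 and its targets 1 rose and none fell, with a median log2 fold change of 0.17, beside 8.95% of all genes, and none was called with the GC slope as a term. The gene that rose was EPHX1 (microsomal epoxide hydrolase), by 0.49 on the log2 scale (SE 0.13, adjusted p = 0.0214), and the groups overlapped in 6 of 11 oil pigs. NFE2L2, which encodes Nrf2, NQO1, HMOX1, GCLC and TXNRD1 had log2 fold changes of -0.03, 0.33, 0.46, 0.00 and 0.20, and none of them was called. Of 19 tested genes that remove superoxide and peroxides 2 rose and 1 fell (1 and 1 with the term). SOD1, the cytosolic superoxide dismutase, lay at 311 to 507 CPM (median 365) without oil and at 471 to 888 CPM (median 565) with oil, with 8 of 11 oil pigs above every pig without oil, and rose by 0.66 (SE 0.09, adjusted p = 5.04e-05). PRDX6, a peroxiredoxin that reduces phospholipid hydroperoxides, fell by 0.58 (SE 0.10, adjusted p = 0.00143). CAT, GPX4 and SOD2 had log2 fold changes of -0.33, 0.34 and 0.02. None of the 12 tested genes for lipid aldehydes was called in either direction, and ALDH2 and ALDH3A2 had log2 fold changes of 0.07 and 0.24.

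Among 12 tested cytochromes P450 and their regulators 5 fell and 2 rose (2 and 1 with the GC slope as a term), beside 2.83% of all genes called lower. Another 14 of the 26 listed had no match by symbol, so these counts do not cover the families as a whole. NR1I3 (the receptor CAR) fell by 0.45 and CYP2A19 by 0.58, and both were called with the term. NR1I2 (the receptor PXR) fell by 0.37 and CYP2E1, which oxidizes ethanol and fatty acids, by 0.42, neither with a call with the term. Of 16 tested conjugation genes 3 rose and 2 fell (1 and 1 with the term), and a pair of sulfotransferases led in opposite directions: beside SULT1C2, SULT1B1 rose by 1.55 on the log2 scale (SE 0.15, adjusted p = 6.56e-07), from 3.30 to 7.25 CPM to 5.87 to 19.2 CPM.

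Of 24 tested genes of amino acid and endoplasmic reticulum stress 5 rose and 1 fell (3 and none with the term). ASNS (asparagine synthetase) lay at 3.57 to 8.43 CPM without oil and 7.38 to 20.8 CPM with oil and rose by 1.40 on the log2 scale (SE 0.16, adjusted p = 3.27e-06), TRIB3 rose by 1.47 and CHAC1 by 1.77. HSPA5, HSP90B1 and XBP1 had log2 fold changes of -0.18, -0.37 and -0.15 and were not called. Of 13 tested heat shock genes 1 rose and 2 fell (none and 1 with the term). In the list of the urea cycle and amino acid breakdown 3 of 31 tested members rose and 1 fell (4 and 1 with the term), and the 9.68% and 3.23% this makes are near the 8.95% and 2.83% of all genes. TAT rose by 1.05, AGXT by 1.26 and ARG1 by 0.83, while CPS1 and OTC had log2 fold changes of -0.30 and -0.19.

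The lists of plasma proteins and iron stand beside 8.95% of all genes called higher and 2.83% called lower (2.17% and 0.918% with the term). Of 18 tested acute phase and plasma protein genes none rose and 5 fell, with a median log2 fold change of -0.33 (2 fell with the term), ITIH1 by 0.78 and the receptor gene IL6R by 0.47 among them. Of 30 tested complement and coagulation genes 2 rose and 4 fell, with a median of -0.29 (none and 1 with the term). Of 19 tested iron genes 2 rose and 4 fell (1 and none with the term). TFRC, the transferrin receptor, fell by 0.84 (SE 0.20, adjusted p = 0.0127) without a call with the term, and BMP6, which signals iron stores, rose by 0.87 (SE 0.18, adjusted p = 0.00436). Of 15 tested genes of the growth hormone and IGF axis 4 rose and 1 fell, none with a call with the term: IGF1 rose by 0.56, IGFBP1 by 1.34 and GHR fell by 0.53.

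The respiratory chain and ATP synthase had 16 of 57 tested members higher and none lower, with a median log2 fold change of 0.22, and none was called with the GC slope as a term. The largest was NDUFS8 at 1.45 (SE 0.35), and SDHA and UQCRC1 rose by 0.39 and 0.47. GC content was known for 37 of the 57, so a comparison of the GC content of this list with that of all genes is void. The fit with the GC slope as a term does not need it and covered all 57. Of 22 tested collagen and matrix genes 5 rose and none fell, COL18A1 by 1.82 and COL6A2 by 1.16 among them, and none was called with the term, while COL1A1 and COL3A1 had log2 fold changes of 0.31 and -0.21. Of 33 tested proteasome genes 3 rose (1 with the term) and of 11 antigen presentation genes 2 rose (none with the term), with no member of either lower. The other 11 of the 22 listed antigen presentation genes had no match by symbol. None of 32 tested interferon-stimulated genes was called. Of 26 tested cell cycle genes 1 rose, CDKN1A (none with the term), and of 18 tested clock genes 1 fell (1 with the term). The study's own 9 qPCR genes, chosen on these samples and so no independent evidence of their direction, held 8 tested members, of which 7 rose with and without the term.

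**Figure D4:**
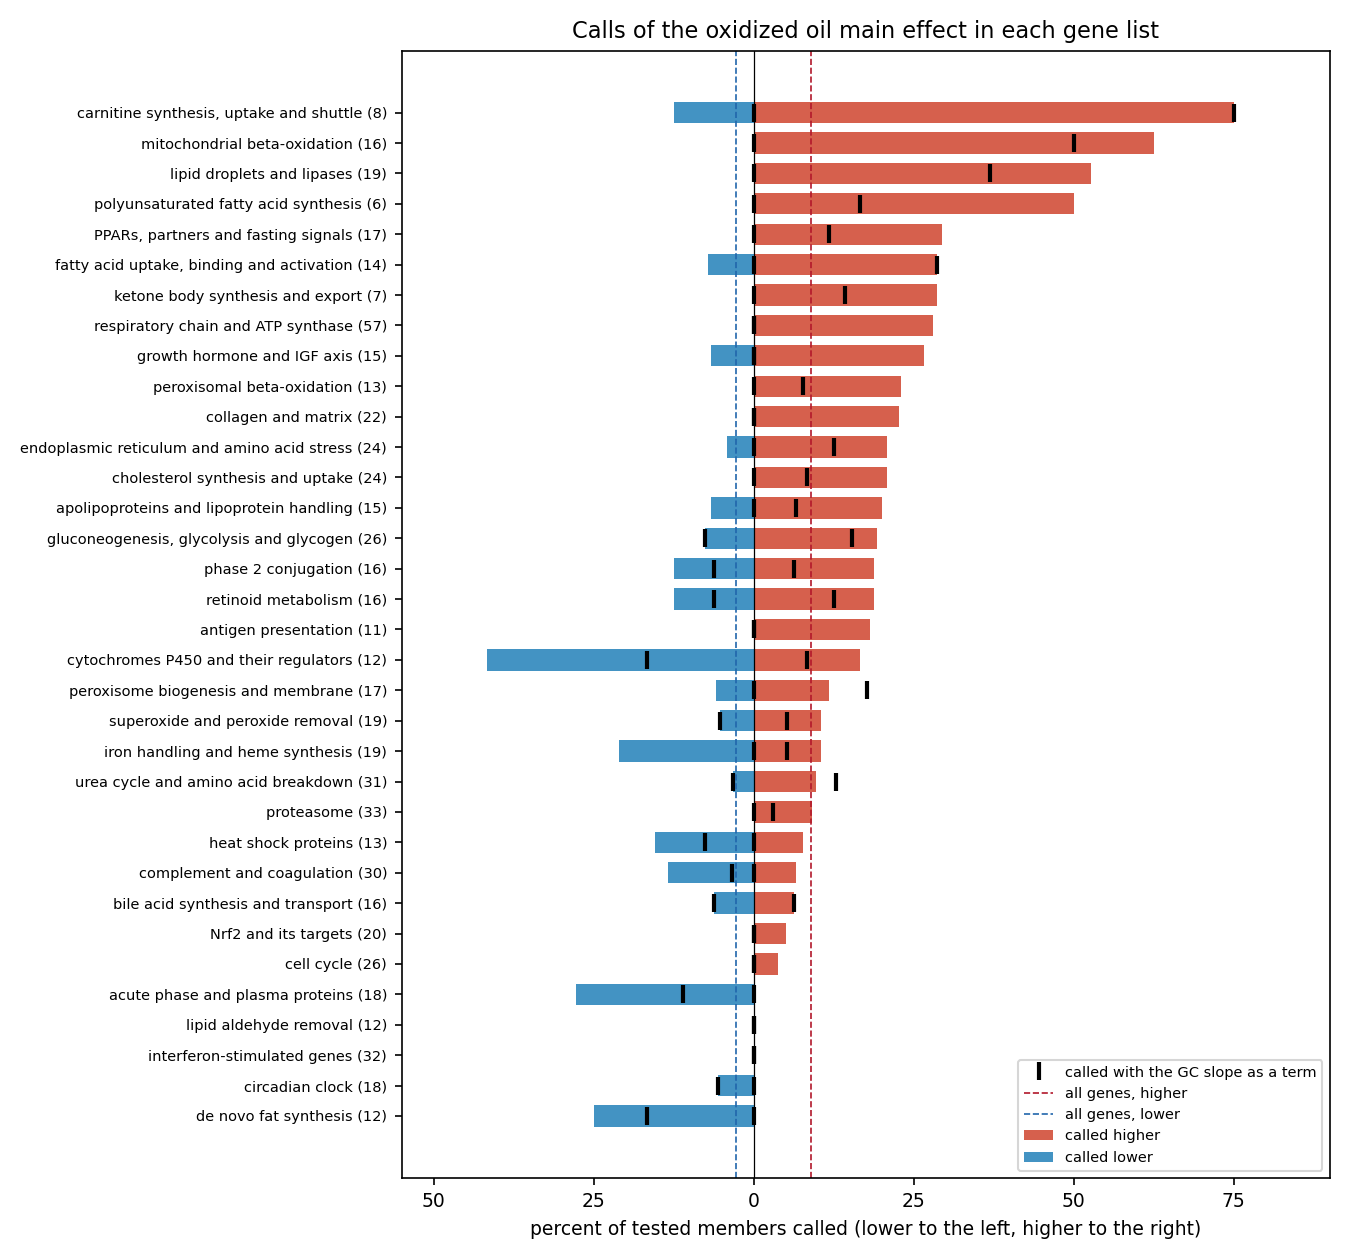
Percent of the tested members of each gene list called higher (red, to the right) or lower (blue, to the left), with the number tested in brackets, dashed lines at the percent of all genes called (8.95% and 2.83%), and black ticks at the percent called with the GC slope as a term. The carnitine shuttle (6 of 8), mitochondrial beta-oxidation (10 of 16) and lipid droplets (10 of 19) reach furthest to the right among lists of fat handling, and their ticks stand at 6 of 8, 8 of 16 and 7 of 19.

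The libraries expressed the defining genes of hepatocytes at high levels, 107705 to 225592 CPM summed over 8 markers without oil and 119322 to 149847 CPM with oil. In tissue, fewer cells of a type and less RNA per cell cannot be told apart. Of 13 lists of cell type markers, summed CPM differed for 2 after adjustment over the lists. Markers of pericentral hepatocytes summed to 2610 to 4696 CPM (median 3867) without oil and 2382 to 3213 CPM (median 2729) with oil (permutation test, two-sided, adjusted p = 0.00351). Of its 7 tested members CYP2E1 and LGR5 fell, neither with a call with the GC slope as a term, and the other 5 were not called. Of those 5, CYP1A2 and OAT had log2 fold changes of -0.23 and -0.53, and SLC1A2, AXIN2 and RHBG of 1.12, 0.23 and 0.12. The members thus moved in both directions, and a sum of CPM weighs the most abundant of them most. The adipocyte list summed to 0.491 to 2.47 CPM without oil and 1.63 to 9.77 CPM with oil (permutation test, two-sided, adjusted p = 0.00078), but PLIN1 was the one member with enough counts to be tested and LEP was at 0 in every library. Macrophage, stellate, endothelial, bile duct, T and NK, B and plasma, neutrophil, red cell and smooth muscle lists had adjusted p values of 0.188 to 0.891, and the hepatocyte and periportal lists 0.116 and 0.775. Whether the share of pericentral cells has a part in the changes of NR1I3 or other zoned genes was not tested, and CYP2E1 is itself 1 of the markers summed.

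The oil effect was also measured in each PFA background, in pigs that the other background does not share. Without PFA (OO against CTR) 190 genes rose (1.37% of genes tested) and 185 fell (1.34%), and with PFA (OO + PFA against PFA) 172 rose (1.24%) and 46 fell (0.333%). Of the 190 genes higher without PFA, 185 (97.4%) had the same sign with PFA, beside 50.3% of all genes, and 73 were called in both, which is 38.4% of the 190 and 42.4% of the 172. Of the 185 genes lower without PFA, 56.8% had the same sign with PFA, beside 49.7% of all genes, and 10 were called in both, 5.41% of the 185 and 21.7% of the 46. Of the 172 genes higher with PFA, 146 (84.9%) had the same sign without it, beside 57.7% of all genes. Of the 46 genes lower with PFA, 45 (97.8%) had the same sign without it, beside 42.3% of all genes. These counts moved with the settings. Leaving out 1 pig gave 167 to 1325 genes called without PFA (375 in all) and 103 to 411 with PFA (218 in all). With the GC slope as a term 1083 and 89 were called. The order turned round with voom (539 and 1394), with all 24 libraries (224 and 1225) and with the share of read pairs on no gene as a term (80 and 140). It also did so without CTR pig 80 (193 and 257), PFA pig 138 (370 and 411), OO-102 (207 and 292) or OO pig 130 (167 and 282). The same held without both CTR pig 80 and OO pig 130 (114 and 316), and in the libraries titled PL.

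No gene passed the test of the interaction, the difference of the oil effect with and without PFA, at an adjusted p of at most 0.05 in edgeR's quasi-likelihood test. Of the 13831 genes tested, 1881 had an unadjusted p under 0.05, and DESeq2 called 150. The smallest adjusted p belonged to PCK1, the rate-limiting enzyme of glucose synthesis from lactate and amino acids. PCK1 held 676 ± 307 CPM in CTR (SD, n = 6), 327 ± 88.9 in PFA (n = 6), 445 ± 157 in OO (n = 6) and 1810 ± 1303 in OO + PFA (n = 5), with log2 fold changes of the oil effect of -0.60 without PFA and 2.47 with it and an interaction adjusted p of 0.0505. DHRS4 had log2 fold changes of 3.55 without PFA and 2.32 with it (interaction adjusted p = 0.134), and NNAT 5.47 and 4.16 (interaction adjusted p = 0.426). CPT1A stood at 1.60 and 1.42, CPT2 at 1.44 and 1.74 and PMM1 at 2.18 and 2.45 (interaction adjusted p = 0.738, 0.632 and 0.740). For PEX11A the values were 1.31 and 0.44 (interaction adjusted p = 0.164). The main effect of PFA, averaged over oil, was called for no gene, with 844 of the 13831 genes at an unadjusted p under 0.05 and 5 called by DESeq2.

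**Figure D5:**
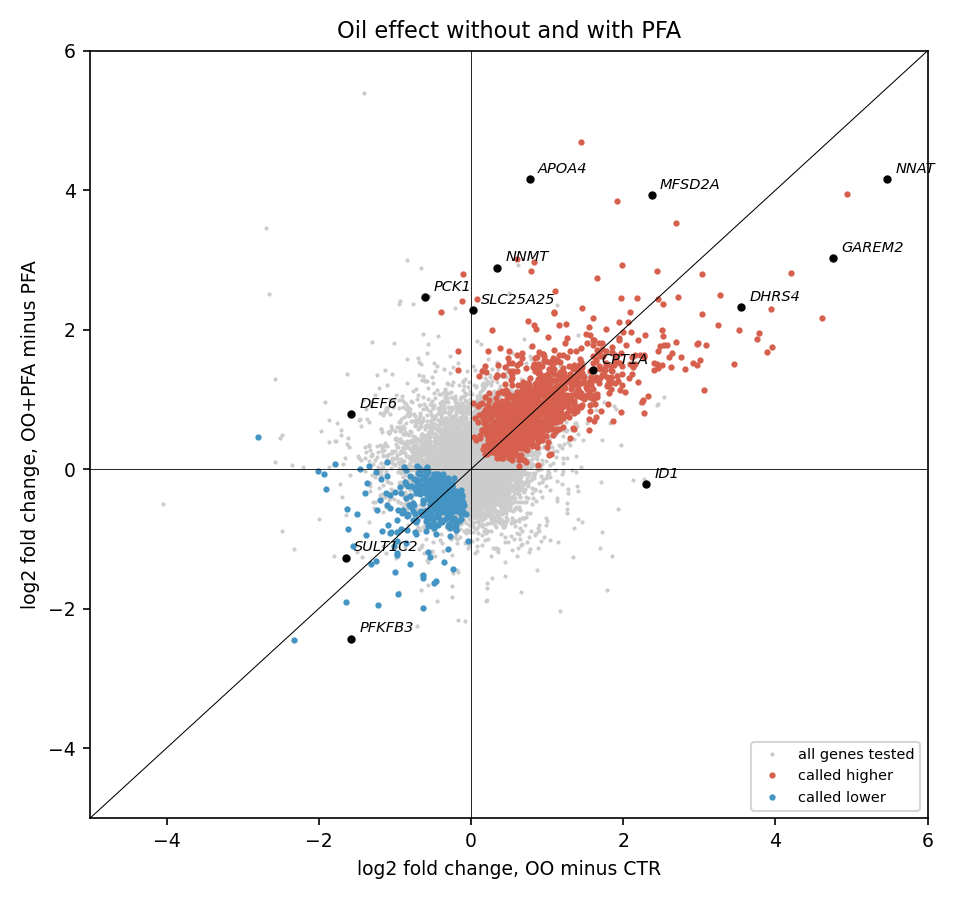
Log2 fold change of the oil effect without PFA (OO minus CTR, x axis) and with PFA (OO + PFA minus PFA, y axis) for each gene tested, in grey, with genes called higher for the main effect in red and lower in blue and the line of equal values in black. CPT1A (1.60 and 1.42) lies near the line, NNAT (5.47 and 4.16) below it and PCK1 (-0.60 and 2.47) above it.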

How the data were processed

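RNA from the liver of 24 pigs was sequenced as stranded, poly(A)-selected paired-end libraries. Per the labels, the authors aligned reads to Sscrofa11.1 with STAR 2.6.1d and deposited raw HTSeq counts of read pairs per Ensembl gene, with no normalization. The annotation release and strand option are not given in the sources used here. Pairs that HTSeq assigned to no gene, to more than 1 gene or with multiple alignments were not part of library sizes. The same counts stand in 1 file per library and in a table of all libraries.

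Counts were scaled by TMM, filtered with filterByExpr and tested with edgeR 4.0.16 (quasi-likelihood, two-sided) in R 4.3.3, with a mean per diet and contrasts for the oil main effect, each PFA background and the interaction. SEs are the log2 fold change over the square root of F. Called genes have an adjusted p (Benjamini-Hochberg over all genes tested) of at most 0.05. Values resting on 3 or fewer counts are near the floor of what the depth allows. Library measures and marker sums were compared by 100000 permutations. Symbols, positions and GC content came from RefSeq gene names in Sscrofa11.1, and GC content was known for 80.4% of genes tested. Alternatives were DESeq2 1.42.0, limma 3.58.1 with voom, other scaling, filters, library subsets and terms, and leaving out each pig.

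Genes named were those with a symbol of their own and at least 1 CPM on average among the 12 largest fold changes or 5 smallest p in each direction, the 3 called genes with the smallest p in each list, key list members, the 4 smallest interaction p, and markers. Results for some genes are not reported here. Genes without overlap, genes marked by their neighbours and further list members were chosen after their values were seen. The samples, lists and tests were chosen with earlier results of these data known. In a test on simulated counts of 13718 genes, 155 of 200 changed genes and 6 unchanged genes were called for the oil main effect. The simulated counts were drawn gene by gene with no GC slope, pen or PFA effect. They therefore do not give the error rate of the calls above.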

Additional observations from a re-analysis of the deposited data

Results flagged for a closer look

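In 38 genes, each diet group (152 in all) was searched for a pig far from the rest by Dixon's test. It found 13, where a share of about 0.05 of groups is found by chance. Among CTR pigs, pig 71 held 0 CPM of NNAT, pig 80 held 101.8 CPM of RETSAT and pig 100 held 0.208 CPM of TGM3, each below the other CTR pigs. The NNAT value is at the floor of a few counts, where the other CTR pigs held 0.0828 to 0.317 CPM, and its distance rests on the 0.01 CPM added before the log, so it says nothing about the pig. Among PFA pigs, pig 107 held 38.5 CPM of KCNMA1, pig 95 held 24.8 CPM of PEX11A and pig 138 held 22.6 CPM of SLC25A25, each above the others, while pig 75 held 0.792 CPM of SPACA1, pig 67 held 7.12 CPM of ID1 and pig 95 held 164 CPM of PCK1, each below them. Among OO pigs, pig 97 held 186 CPM of ACSL4 and pig 88 held 2.03 CPM of OVGP1, and among OO + PFA pigs, OP-137 held 675 CPM of APOA4 and OP-105 held 1.06 CPM of TAFA2, all above the others.

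The library of OO + PFA pig 77 was in no main comparison. It entered the alternative with all 24 libraries and the gene means against which GC slopes were measured. It held 3.29 CPM of NNAT and 241 CPM of DHRS4, both above every pig without oil. Of the 19 genes at least 2-fold higher without overlap, 12 lay above every pig without oil in that library, as did 28.9% of all genes tested. CPT1A (75.7 CPM), CPT2 (39.4 CPM) and RETSAT (153 CPM) did not. Its GC slope was 0.64, above that of the 23 libraries used, and 48.3% of its read pairs on genes fell on its 10 most abundant genes.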

How the results depend on the processing

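No paired analysis was possible because each liver pig number occurs in 1 diet only. The number of genes called for the oil main effect (1238 higher, 392 lower, 441 and 28 at 2-fold) moved by over 1.5 times under these alternatives. With the GC slope as a term it was 300 higher, 127 lower, 84 and 18. In the libraries titled PL alone, with 1 OO + PFA pig assumed to vary like the others, it was 28 higher, 2 lower, 28 and 2. DESeq2 called 804 lower, and voom called 741 lower and 265 at least 2-fold higher. At least 2-fold lower were 43 genes with no filter and 13 with at least 10 counts in every library. Without PFA (375 genes called in all), the count was 1079 with DESeq2, 224 with all 24 libraries, 114 in libraries titled PigLiv, 8 in PL, 80 with the share of pairs on no gene as a term, 1083 with the GC slope, and 114 without CTR pig 80 (most pairs on no gene) and OO pig 130 (most pairs with several alignments of the libraries used), an alternative chosen after seeing the data. With PFA (218), it was 697 with DESeq2, 1394 with voom, 1225 with all libraries, 30 in PigLiv, 35 in PL, 140 with the no-gene term and 89 with the GC slope. Interaction calls (0) were 150 with DESeq2, 2 with DESeq2 size factors, with upper quartile factors and with no filter, 47 in PL and 3 with Y-linked counts as a term. PFA calls (0) were 5 with DESeq2, 1 with voom and 63 with the GC slope. The cause was not tested.

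Leaving out 1 pig gave 623 to 1868 genes higher, 214 to 804 lower, 252 to 562 and 21 to 35 at 2-fold, 167 to 1325 without PFA, 103 to 411 with PFA, 0 to 5 for the interaction and 0 for PFA. The count higher moved by over 1.5 times without CTR pig 100 (805), PFA pigs 67 (810) and 107 (817), OO pigs 97 (1868), OO-102 (623) and 130 (661), and OO + PFA pig 79 (713). The count lower did so without CTR pigs 100 (255) and 110 (246), PFA pigs 67 (252) and 107 (259), and OO pigs 97 (804), 99 (259), OO-102 (214) and 130 (236), and that at 2-fold higher without OO pigs OO-102 (252) and 130 (271). Without PFA it did so without CTR pigs 80 (193), 85 (189) and 110 (237) and OO pigs 74 (848), 88 (248), 97 (1325), OO-102 (207) and 130 (167). With PFA it did so without PFA pigs 67 (116), 95 (111), 107 (117) and 138 (411), OO pig 97 (333) and OO + PFA pigs OP-126 (124) and OP-137 (103). Of 121 named genes followed, 94 kept their call whichever pig was left out. Of genes in the text, ACADM, CDKN1A, DGAT2, GHR, IGF1 and IGFBP1 lost it without any of several pigs, BDH1 without OO pig 130 (0.43), APOA4 without OP-137 (1.18) and PCK1 without OO-102 (0.83) or OP-137 (0.66). TGM3 alone changed sign, to -0.48 in PL. The 1630 called genes kept their sign in PigLiv where a value was given, and 1235 of the 1238 and 389 of the 392 in PL. These libraries are part of those in which the genes were called, so kept signs are largely set in advance and are no independent evidence. Depth limits genes near 1 CPM, such as STARD6 and HS3ST2.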
